A study of Mus musculus with 6 samples.

Results

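Glycolytic enzyme genes were followed in tumour-infiltrating CD8+ T cells. Of 10 genes chosen by symbol, Hk1, Hk2, Gpi1, Pfkm, Pfkp, Aldoa, Tpi1, Pgk1, Eno1 and Ldhb, 5 were present in the table of 6467 genes that the authors deposited: Hk2, Gpi1, Pfkm, Pfkp and Aldoa. The table holds only genes with an authors' q-value below 0.05, so each of the 5 had already passed the authors' test, as had 37.9% of the 17077 genes they tested (16.0% higher and 21.9% lower in treated libraries). Hk1, Tpi1, Pgk1, Eno1 and Ldhb lie outside that table and were not analysed here.

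RNA was sequenced from CD8+ T cells sorted out of MC38 tumours, a mouse colon carcinoma line carried by wild-type C57/B6J mice. The 3 libraries of the control group came from mice given PBS. The 3 libraries of the treated group came from mice given 30 µg of αPD-1-IL-15-R intraperitoneally on days 14 and 17, with cells taken 48 hours after the later dose. The name αPD-1-IL-15-R joins anti-PD-1, an antibody against a checkpoint receptor of T cells, and IL-15, a cytokine that sustains CD8+ T cells, and the labels do not describe the molecule further. Neither component on its own was analysed here, the age of the mice is not among the labels used, and the labels do not say whether a library stands for 1 mouse or a pool, so the p-values measure the spread between libraries, which may be partly technical.

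Glycolysis turns glucose into pyruvate in a chain of cytosolic steps and yields ATP without oxygen. Hexokinase traps glucose as glucose 6-phosphate, an isomerase converts it to fructose 6-phosphate, phosphofructokinase commits it to the pathway, and aldolase splits the product into triose phosphates. Activated CD8+ T cells are known to increase glucose uptake and glycolysis as they divide and acquire effector functions, and tumour cells and macrophages also use the pathway heavily. Several steps have isoform genes with different tissue preferences.

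The table genes held 8484736 to 9248214 reads in the PBS libraries and 8886351 to 9403710 in the treated ones. The libraries differed in cell type markers. Only markers in the table entered the sums below, and each had passed the authors' test of treated against PBS. A difference between the groups was thus required for entry, and listed markers outside the table were left out. The 9 T cell markers in the table, of 17 listed, summed to 1791, 5050 and 3078 TPM (a transcript level scaled for gene length and library) in PBS libraries 1 to 3 and to 5212, 6166 and 5900 TPM in treated libraries 1 to 3. All 14 macrophage and monocyte markers listed were in the table, and their sum was 3572, 3484 and 4791 TPM in PBS against 1261, 393 and 406 TPM in treated libraries. The 10 fibroblast and stroma markers in the table, of 11 listed, summed to 1583, 945 and 1545 TPM in PBS and to 273, 36.6 and 45.6 TPM in treated libraries, and Lum was at 0 in treated library 3. The sorted cells' own Cd8b1, a CD8 coreceptor subunit, was at 315, 892 and 518 TPM in PBS libraries 1 to 3. In treated libraries 1 to 3 it was at 822, 1024 and 870 TPM. No B cell or erythroid marker listed was in the table, which does not show whether they were expressed. Smaller sums went both ways: the 2 neutrophil markers in the table (of 5) lay at 16.9 to 26.1 TPM in PBS and 33.9 to 76.7 TPM in treated libraries, and the 2 endothelial ones (of 3) at 1.22 to 4.55 and 0.09 to 0.40 TPM. The 2 muscle markers (of 8), of interest beside muscle-type enzymes, summed to 3.20 to 4.83 TPM in PBS and 7.79 to 9.16 TPM in treated libraries. In such bulk samples, fewer cells of a type and less RNA per cell cannot be told apart.

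The 5 genes split by direction. Gpi1, Aldoa and Pfkp rose in the treated libraries with the authors' scaling. All 3 stood below 0 when scaled on T cell genes that were themselves higher in treated libraries. Pfkm fell, while Hk2 stood lower without passing the test (edgeR quasi-likelihood test, Benjamini-Hochberg adjustment over 17077 genes). The test called 4 of the 5, where it called 37.2% of the 6251 fitted table genes. It called 3 genes higher, where 16.5% of fitted genes were called higher, and 1 lower, where 20.7% were called lower. DESeq2 called all 5, as it called 6351 of the 6467 table genes. In normalised reads, counts divided by the authors' size factors, the groups did not overlap for any of the 5, which held for 99.3% of the table's genes, nor did they in TPM, which held for 84.0%. Without PBS library 1, PBS library 3, treated library 2 or treated library 3, edgeR called 0 of the 5, with 4 of the 5 at an unadjusted p under 0.05 in each case and adjusted p from 0.088 to 0.231. In those same fits edgeR called 0 genes of the whole table, and 4220 to 4884 genes had an unadjusted p under 0.05.

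**Figure D1:**
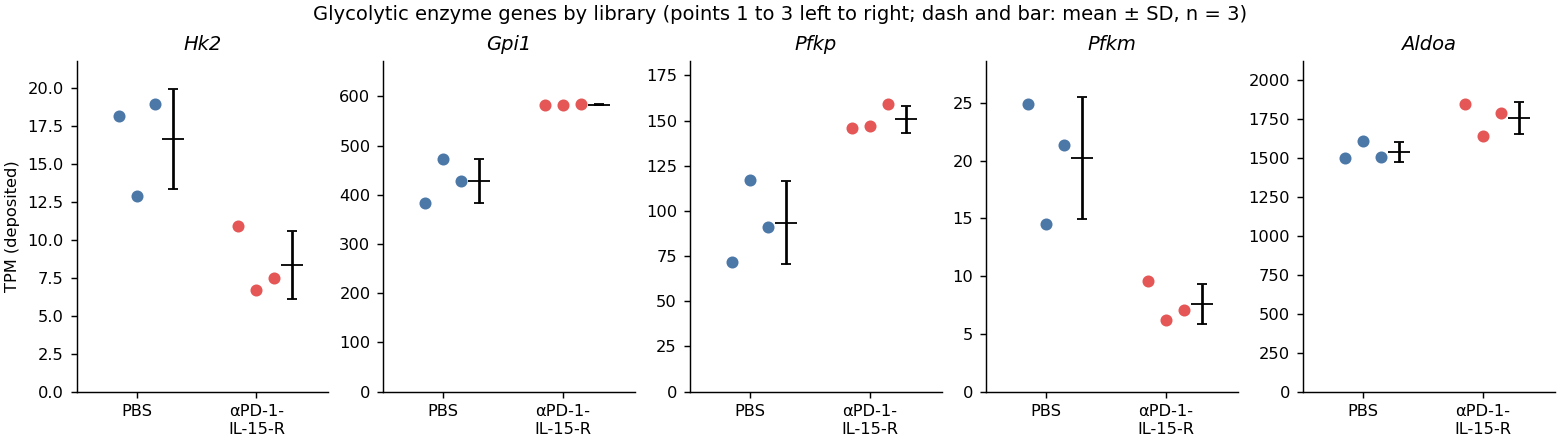
Deposited TPM (y axis, from 0) of the 5 glycolytic enzyme genes in the 3 PBS and 3 αPD-1-IL-15-R libraries, with 1 panel per gene in pathway order and the mean ± SD beside the points. Gpi1 and Pfkp lie higher in all 3 treated libraries, Hk2 and Pfkm lie lower, and the Aldoa groups come within 1610 and 1638 TPM of each other.

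Hk2 (gene ID 15277) encodes hexokinase 2, the inducible hexokinase that binds mitochondria and carries out the entry step. Its level was 18.2, 12.9 and 19.0 TPM in PBS libraries 1 to 3 and 10.9, 6.68 and 7.48 TPM in treated libraries 1 to 3. PBS library 2 was the lowest of its group and treated library 1 the highest of its own, and these came closest to each other. In normalised reads the means were 981 ± 188 in PBS and 607 ± 135 in treated libraries (SD, n = 3), which is -0.69 ± 0.22 (SE) on the log2 scale (edgeR, adjusted p = 0.079). Without treated library 1 the log2 change was -0.89 with an edgeR adjusted p of 0.024, in a fit that called 4549 of 6356 table genes. With any other library left out, the edgeR adjusted p of Hk2 was 0.056 to 0.231. Its q-value in the authors' deposited table was 0.022, the one nearest to the table's limit among the 5 genes.

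Gpi1 (gene ID 14751) encodes glucose-6-phosphate isomerase, the only enzyme of the following step. Its level was 383, 473 and 427 TPM in PBS libraries 1 to 3 and 582, 583 and 584 TPM in treated libraries 1 to 3. The treated libraries were nearly equal in TPM, with a coefficient of variation of 0.17% against 10.5% in PBS (4.4% and 10.2% in normalised reads), and every one stood above PBS library 2, the highest control. Normalised reads rose from 12600 ± 1288 to 21344 ± 933 (SD, n = 3), 1.69-fold, or 0.76 ± 0.11 (SE) on the log2 scale (edgeR, adjusted p = 0.040). In TPM the ratio of the means was smaller, at 1.36-fold.

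Pfkp (gene ID 56421) encodes the platelet-type phosphofructokinase, and Pfkm (gene ID 18642) the muscle-type one. Pfkp was at 71.5, 117 and 91.3 TPM in PBS libraries 1 to 3 and at 146, 147 and 159 TPM in treated libraries 1 to 3. The PBS libraries spread over 1.64-fold and the treated ones over 1.09-fold, with all treated libraries above all controls. Its normalised reads rose from 3180 ± 776 to 6400 ± 479 (SD, n = 3), 2.01-fold, or 1.01 ± 0.20 (SE) on the log2 scale (edgeR, adjusted p = 0.042).

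Pfkm was at 24.9, 14.5 and 21.3 TPM in PBS libraries 1 to 3 and at 9.56, 6.23 and 7.02 TPM in treated libraries 1 to 3. PBS library 2, highest for Pfkp, was lowest of the controls for Pfkm, and treated library 1 was highest of its group. Normalised reads fell from 597 ± 167 to 275 ± 50.2 (SD, n = 3), a change of -1.12 ± 0.26 (SE) on the log2 scale (edgeR, adjusted p = 0.048). The edgeR call was lost with median-ratio scaling, at -0.70 (adjusted p = 0.053), and with a minimum of 100 reads in every library, at the same size of change (adjusted p = 0.0505). Pfkp counts carried decimals in all 6 libraries and Pfkm counts in 2, the mark of reads divided between genes, while the counts of Gpi1, Aldoa and Hk2 were whole in all 6.

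Aldoa (gene ID 11674) encodes aldolase A, the form found in most tissues and abundant in muscle. It had the most transcripts of the 5, between 68.8% and 75.1% of their summed TPM in every library. Its level was 1499, 1610 and 1504 TPM in PBS libraries 1 to 3 and 1843, 1638 and 1783 TPM in treated libraries 1 to 3. PBS library 2 and treated library 2 were close, so the groups were separated only narrowly. Normalised reads rose from 21663 ± 1540 to 30628 ± 918 (SD, n = 3), 1.41-fold, or 0.50 ± 0.09 (SE) on the log2 scale (edgeR, adjusted p = 0.041). On the log2(TPM + 1) scale the change was 0.19 (SE 0.07), with an adjusted p of 0.148 by limma.

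In TPM, the order of the 5 levels was the same in all 3 treated libraries, Aldoa, Gpi1, Pfkp, Hk2 and Pfkm from the top. In PBS, Pfkm stood above Hk2 in each library. The ratio of Pfkm to Hk2 TPM was 1.37, 1.13 and 1.13 in PBS libraries 1 to 3 and 0.877, 0.933 and 0.939 in treated libraries 1 to 3, and in PBS library 2 the 2 levels differed by less than the spread between PBS libraries. The summed TPM of the 5 genes was 2096 ± 118 in PBS and 2505 ± 110 in treated libraries (SD, n = 3), 1.20-fold, with p = 0.1 by an exact two-sided permutation test, the smallest that 3 libraries against 3 allow. In normalised reads the sum was 1.52-fold.

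Phosphofructokinase is the step where isoforms could be set side by side, since all 3 of its genes are in the table. Pfkl, the liver-type gene, was at 102, 71.4 and 85.8 TPM in PBS libraries 1 to 3 and at 51.9, 36.4 and 38.3 TPM in treated libraries 1 to 3. By edgeR it stood at -0.73 (SE 0.20, adjusted p = 0.059) on the log2 scale. The Pfkp share of the step's TPM was 36.0%, 57.7% and 46.0% in PBS libraries 1 to 3 and 70.3%, 77.5% and 77.8% in treated libraries 1 to 3. The means were 46.6% ± 10.9 and 75.2% ± 4.3 (SD, n = 3), a difference of 28.7 percentage points. The Pfkl share went from 43.3% ± 8.2 to 21.0% ± 3.5 and the Pfkm share from 10.1% ± 2.7 to 3.8% ± 0.73 (SD, n = 3). Each of the 5 shares computed over phosphofructokinase and hexokinase had p = 0.1 by the exact permutation test, also after adjustment over the 5, and this is the smallest p the design allows. The groups did not overlap for any phosphofructokinase share, and a share within a library does not depend on how libraries were scaled. All 3 genes had passed the authors' test, and in TPM Pfkp lay higher and Pfkl and Pfkm lower without overlap. A Pfkp share without overlap, and its p of 0.1, followed from this and add no separate support.

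The step's summed TPM was close between groups. It was 199, 203 and 198 TPM in PBS libraries 1 to 3 and 207, 190 and 204 TPM in treated libraries 1 to 3, so the treated libraries lay on both sides of the controls (exact two-sided permutation p = 1.0). In normalised reads the same sum went from 7182 ± 438 to 8730 ± 226 (SD, n = 3), 1.22-fold, so closeness holds for TPM and not for that scale. The Pfkp to Pfkm ratio of TPM was 2.87, 8.08 and 4.28 in PBS libraries 1 to 3 and 15.2, 23.6 and 22.7 in treated libraries 1 to 3. The Pfkl to Pfkm ratio moved far less, from 4.35 ± 0.49 to 5.58 ± 0.23 (SD, n = 3).

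**Figure D2:**
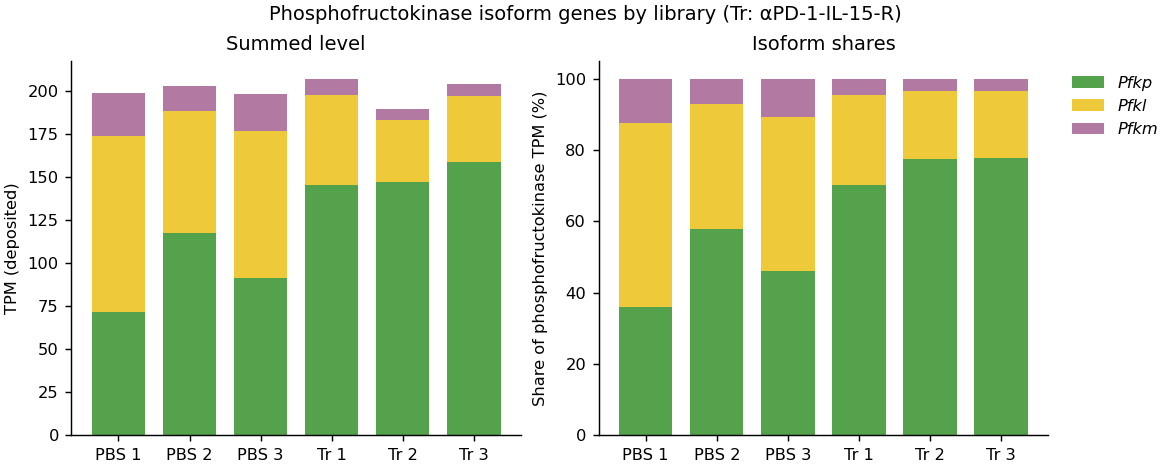
TPM of the 3 phosphofructokinase genes stacked by library (left, y axis in TPM) and their shares of the step's TPM (right, y axis in percent); colours mark Pfkp, Pfkl and Pfkm. The summed bars run from 190 to 207 TPM, while the Pfkp share runs from 36.0% to 57.7% in PBS and from 70.3% to 77.8% in treated libraries.

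At the hexokinase step, Hk2 and Hk3 were in the table and Hk1 was outside it, so shares cover these 2 genes only. Hk3, a hexokinase typical of myeloid cells, was at 12.8, 12.8 and 17.5 TPM in PBS libraries 1 to 3 and at 7.33, 2.25 and 2.36 TPM in treated libraries 1 to 3. Its log2 change was -1.56 (SE 0.49, edgeR adjusted p = 0.078), and -2.30 without treated library 1 (edgeR adjusted p = 0.0011). The latter fit called 4549 of 6356 table genes. With any other library left out, the edgeR adjusted p of Hk3 was 0.133 to 0.223. The Hk2 share of the pair was 53.6% ± 4.4 in PBS and 70.2% ± 9.0 in treated libraries (SD, n = 3), and treated library 1, at 59.8%, stood close to PBS library 1, at 58.6%. The pair's summed TPM went from 31.0 ± 5.4 to 12.3 ± 5.1 (SD, n = 3; exact permutation p = 0.1).

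The marker sums given above differed between the groups together with the 5 genes, and within groups the orders matched only in part. In TPM, Pfkp, Gpi1 and Aldoa had the same order among the PBS libraries as the T cell sum, lowest in library 1 and highest in library 2. In the treated libraries none of the 3 had that order in TPM: the T cell sum was highest in library 2, where Aldoa was lowest, while Pfkp and Gpi1 were highest in library 3. These orders depended on the scale. In normalised reads Gpi1 and Aldoa were lowest in PBS library 3, at 11832 and 19927. Gpi1 was then at 20309, 22120 and 21602 in treated libraries 1 to 3, the order of the T cell sum. In TPM, Pfkm had the order of the fibroblast and stroma sum in both groups, and Hk2 had that of the macrophage and monocyte sum in both. Both sums had the same order in the treated libraries, so only the PBS libraries set them apart. In normalised reads Hk2 was at 1125, 768 and 1049 in PBS libraries 1 to 3, the order of the stroma sum. Treated library 1 had the largest macrophage and stroma sums of its group. The part of these markers in the changes was not tested. Scaled on 24 T cell and T cell receptor signalling genes, the log2 changes were -0.73 (SE 0.38) for Gpi1, -1.02 (SE 0.42) for Aldoa, -0.42 (SE 0.31) for Pfkp, -2.27 (SE 0.59) for Hk2 and -2.75 (SE 0.66) for Pfkm. None of the first 3 passed the edgeR test on that scale, with adjusted p of 0.325, 0.191 and 0.673. Hk2 and Pfkm passed it, with adjusted p of 0.049 and 0.048. On that scale edgeR called 31 of the 6321 fitted table genes higher and 2714 lower. The 24 scaling genes came from the authors' deposited table, and all of them were higher in treated libraries there. A downward shift of the other genes was thus built into this scale.

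**Figure D3:**
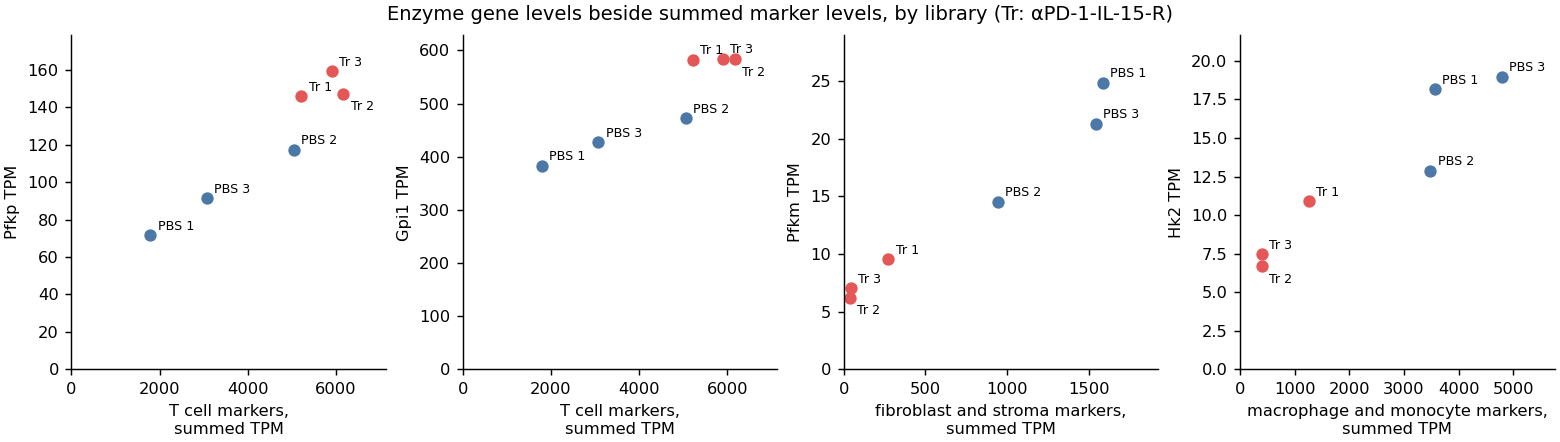
TPM of Pfkp, Gpi1, Pfkm and Hk2 (y axes, from 0) against the summed TPM of a marker list (x axes, from 0), with 1 point per library, PBS in blue and treated in red. Pfkp and Gpi1 are plotted on the T cell sum, Pfkm on the fibroblast and stroma sum and Hk2 on the macrophage and monocyte sum; PBS library 1 has the lowest T cell sum at 1791 TPM and the lowest Pfkp at 71.5 TPM.

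That scaling moved the median log2 change of all fitted table genes from -0.57 to -2.16, TMM scaling moved it to -0.29 and median-ratio scaling to -0.15. Changes are therefore also given relative to the median of the table. A size factor shifts all genes of a library alike, so these relative values are close between the count scalings by construction. The log2(TPM + 1) scale is no independent check, since it also depends on the added 1 and takes the median over all 6467 genes. On log2(TPM + 0.1) the median was -0.90, against -0.65 on log2(TPM + 1), while Pfkp stood at 0.72 and 0.71. Pfkp stood 1.58 above the median with the authors' scaling and between 1.36, on log2(TPM + 1), and 1.75 above it over the 5 scales. Gpi1 stood 1.10 to 1.43 and Aldoa 0.84 to 1.14 above it. Hk2 stood 0.11 to 0.28 below the median, close to the typical table gene, and Pfkm 0.54 to 0.64 below.

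**Figure D4:**
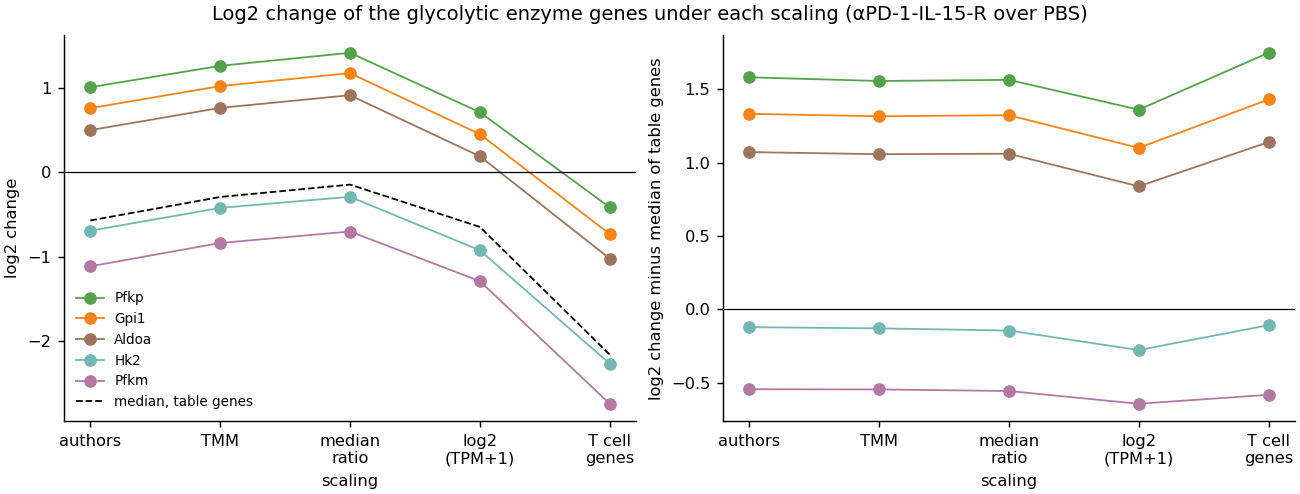
Log2 change of the 5 genes (left, y axis) under the authors' size factors, TMM, median-ratio factors, log2(TPM + 1) and the T cell gene scaling, and the same minus the median of the table genes (right, y axis). On the left Pfkp, Gpi1 and Aldoa are above 0 under 4 scales and below 0 with the T cell genes; on the right, where count scalings give close values by construction, Pfkp is 1.36 to 1.75 above the median and Pfkm 0.54 to 0.64 below it.

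The start regions of Pfkp, Hk2 and Pfkm are shown to set the phosphofructokinase gene that rose beside the one that fell and the entry enzyme. The hypoxia-inducible factor HIF-1, known to drive glycolytic genes, binds around the cores ACGTG and GCGTG, and MYC-type factors bind around CACGTG, which contains ACGTG. RefSeq start windows of 300 bases on GRCm38.p6 were searched for these on both strands, and all 5 genes had at least 1 window. Of 32851 windows of that length, 43.8% held ACGTG or GCGTG and 7.2% held CACGTG. Pfkp, at chr13:6648722-6649021 on the minus strand, had 4 GCGTG matches. Hk2, at chr6:82774405-82774704 on the minus strand, had 2 ACGTG matches. Pfkm had 4 windows with 3, 2, 1 and 0 matches, of both cores, since its windows 2 and 3 each held 1 GCGTG. The window with 3, all ACGTG, at chr15:98092339-98092638 on the plus strand, is printed because it had the most matches. Its CACGTG reads the same on both strands and so counts as 2. Its GC content was 36.7%, against 53.0% to 59.0% in the other Pfkm windows, which start at 98108221 or beyond. The 43.8% is a share of single windows, not of the best window of a gene. The single Gpi1 window had 0 matches and the 3 Aldoa windows 0, 1 and 1. Capitals mark the matched cores on either strand (CACGT is ACGTG read on the other strand), and sequences run 5′ to 3′.
Pfkp: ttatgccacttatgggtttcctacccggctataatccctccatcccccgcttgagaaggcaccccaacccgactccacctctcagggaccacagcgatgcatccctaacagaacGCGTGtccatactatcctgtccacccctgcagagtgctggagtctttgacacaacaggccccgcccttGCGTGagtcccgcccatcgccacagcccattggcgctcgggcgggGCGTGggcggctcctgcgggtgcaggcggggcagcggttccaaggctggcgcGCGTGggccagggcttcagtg
Hk2: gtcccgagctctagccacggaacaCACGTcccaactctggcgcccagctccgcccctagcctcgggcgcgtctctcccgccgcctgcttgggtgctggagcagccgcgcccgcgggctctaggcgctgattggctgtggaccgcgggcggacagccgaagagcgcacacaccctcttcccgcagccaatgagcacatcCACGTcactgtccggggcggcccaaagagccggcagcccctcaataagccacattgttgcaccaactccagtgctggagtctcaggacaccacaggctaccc
Pfkm: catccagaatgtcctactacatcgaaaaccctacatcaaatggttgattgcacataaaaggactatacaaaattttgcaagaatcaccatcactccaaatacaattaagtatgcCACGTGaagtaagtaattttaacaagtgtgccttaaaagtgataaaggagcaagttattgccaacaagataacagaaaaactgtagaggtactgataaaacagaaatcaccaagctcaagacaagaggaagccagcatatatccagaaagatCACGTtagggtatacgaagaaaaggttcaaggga
These are matches of letters only, and binding was not measured. Pfkp, which rose, and Pfkm, which fell, both hold them, while Gpi1, which also rose, had 0 in its window.

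Beyond the 10 genes, 23 other glycolytic enzyme genes and isoforms were listed, and 4 were in the table, Hk3, Pfkl, Adpgk and Eno2, all lower in the authors' deposited table. The edgeR test called 0 of the 4. All 4 had an unadjusted p under 0.05, as had 6127 of the 6251 fitted table genes. DESeq2 called 4, as it called 6351 of the 6467 table genes. Eno2, the neuron-type enolase, was at 2.72, 1.80 and 2.39 TPM in PBS and 0.99, 0.40 and 0.34 TPM in treated libraries. Its log2 change was -1.74 by edgeR (SE 0.46, adjusted p = 0.056), and -2.29 without treated library 1 (edgeR adjusted p = 0.0068). With any other library left out, the edgeR adjusted p of Eno2 was 0.069 to 0.184. Adpgk, an ADP-dependent glucokinase, stood at -0.31 (SE 0.09, edgeR adjusted p = 0.064), and its sign turned to 0.105 with median-ratio scaling.

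For the other lists, changes are edgeR log2 changes, and the named genes that rose or fell had adjusted p between 0.040 and 0.048. The called counts of the lists stand against 16.5% of fitted table genes called higher and 20.7% called lower, 37.2% in all. With T cell gene scaling, 4 of the 52 table genes in the 11 lists around the 10 genes stood higher, as did 449 of the 6321 table genes fitted on that scale, a like share.

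Of 13 glucose uptake and lactate export genes, 7 were in the authors' deposited table (4 higher, 3 lower), of which edgeR called 2 higher and 1 lower. Emb, the monocarboxylate transporter partner embigin, rose by 1.50 (SE 0.19), and Slc2a9, a urate and hexose carrier, rose by 1.09 (SE 0.20). Slc16a7, a monocarboxylate transporter, fell from 25, 19 and 26 reads in PBS to 3, 4 and 3 reads in treated libraries. Slc2a3, the high-affinity glucose transporter of lymphocytes and neurons, was at 16.3, 52.3 and 28.9 TPM in PBS and 58.7, 68.8 and 69.3 TPM in treated libraries, or 1.33 by edgeR (SE 0.42, adjusted p = 0.078). Its order among the PBS libraries was that of the T cell sum. The 3 genes in the table that control phosphofructokinase or gluconeogenesis, of 12 listed, were all called, against 37.2% of fitted table genes. Pfkfb4, which sets the level of the phosphofructokinase activator, fell by 1.88 (SE 0.41), and Pck2, which makes phosphoenolpyruvate in mitochondria, fell by 1.47 (SE 0.31). Pcx, pyruvate carboxylase, rose by 1.48 (SE 0.21).

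Downstream, 5 of 14 pyruvate entry genes were in the authors' deposited table (3 higher, 2 lower), and the 1 that edgeR called was Mpc2, a subunit of the mitochondrial pyruvate carrier, which rose by 0.73 (SE 0.16). Of 20 TCA cycle genes 6 were in the table (4 higher, 2 lower), and edgeR called 2. Mdh1, the cytosolic malate dehydrogenase, rose by 0.50 (SE 0.11) and Suclg1, a succinyl-CoA ligase subunit, by 0.49 (SE 0.11). Of 8 redox shuttle genes 3 were in the table, and edgeR called 1, Gpd1l, a glycerol 3-phosphate dehydrogenase relative, which rose by 0.86 (SE 0.13).

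Side branches were mixed. Of 10 pentose phosphate genes, 5 were in the authors' deposited table (4 higher, 1 lower). Here edgeR called 0, while 5 had an unadjusted p under 0.05, as had 6127 of the 6251 fitted table genes. DESeq2 called 5, as it called 6351 of the 6467 table genes. Rpia and Taldo1, both of the branch's non-oxidative part, stood at 0.68 (SE 0.17, edgeR adjusted p = 0.051) and 0.32 (SE 0.10, edgeR adjusted p = 0.076). Of 16 glycogen genes, 7 were in the table and edgeR called 3 lower and 1 higher. Gaa, the lysosomal glycogen-degrading glucosidase, fell by 1.57 (SE 0.35), Gys1, glycogen synthase, fell by 0.79 (SE 0.15) and Phka1, a phosphorylase kinase subunit, fell by 0.60 (SE 0.14). Gyg, the glycogen primer glycogenin, rose by 0.48 (SE 0.09). Of 10 hexosamine and mannose genes 2 were in the table, and the 1 that edgeR called was Pmm2, phosphomannomutase, which rose by 0.63 (SE 0.14).

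Of 20 genes that control glycolytic transcription, 4 were in the table and edgeR called 1. Mycn, which encodes the MYC relative N-Myc, had 2, 3 and 0 reads in PBS and 62, 64 and 63 reads in treated libraries, with an edgeR adjusted p of 0.040. Of 14 targets of HIF-1 outside glycolysis, 6 were in the table, all of them lower. Their median in the authors' deposited table was -2.04 on the log2 scale, against -0.62 for all table genes. The edgeR test called 3 of these. Plod2 and P4ha1, collagen-modifying hydroxylases, fell by 1.44 (SE 0.23) and 1.26 (SE 0.26), and Adm, the peptide adrenomedullin, went from 11, 13 and 16 reads to 2, 2 and 1. The collagen and stroma marker sums given above were lower in the same libraries, and their part was not tested. Over the 11 lists around the 10 genes, 52 of 160 genes were in the table, where 37.9% of all tested genes were. Of the 52, 23 were higher and 29 lower, and edgeR called 10 higher and 9 lower, shares near the 16.5% and 20.7% of all fitted genes.

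**Figure D5:**
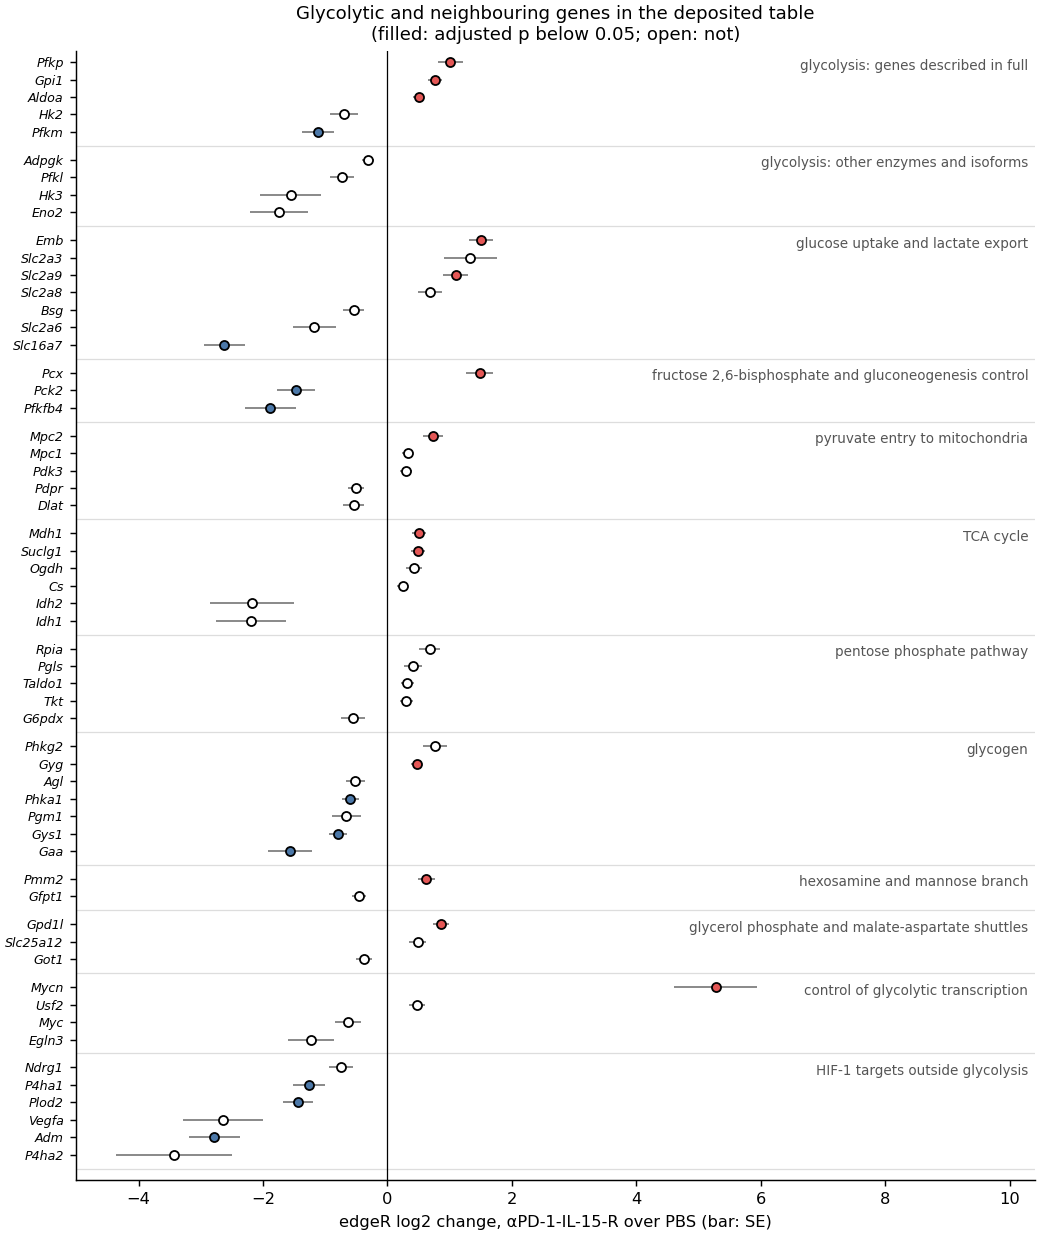
edgeR log2 change, αPD-1-IL-15-R over PBS (x axis, bars SE), of the 5 genes and of the 52 table genes in the 11 lists around them (y axis, grouped by list); filled points had an adjusted p below 0.05. Lists hold genes on both sides of 0 except the other glycolytic isoforms and the HIF-1 targets, where 4 of 4 and 6 of 6 lie below 0.

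Genes with the profile closest to each of the 3 leading genes were sought by the root mean square (RMS) difference of centred log2 normalised reads over the 6 libraries, among 4933 other table genes with a mean of at least 100 normalised reads. Bag1, a co-chaperone, was closest to Gpi1 with an RMS difference of 0.027, followed by Galns and Rbm43, each at 0.029. Closest to Aldoa were Mdh1 at 0.032, Akr1b3, an aldose reductase, at 0.033 and Ube2m at 0.039. Closest to Pfkm were Arl2 at 0.045, Morf4l2 at 0.049 and Cited2 at 0.055. Within the 5 genes, Gpi1 was nearest to Aldoa (0.154) and Pfkm nearest to Hk2 (0.220), and Pfkm and Pfkp stood far apart (1.165). Many other table genes were closer: among the 4933 compared, Aldoa ranked 686 from Gpi1 and Hk2 ranked 459 from Pfkm.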

How the data were processed

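mRNA libraries were sequenced by BGI; strand and genome build are not given in the sources used here. HISAT2 and RSEM are listed, with no role or version, per the submitters' processing notes. The authors deposited 1 table with estimated counts per gene, not scaled, and TPM values per library, per the file headers. Between 88.7% and 90.1% of the counts in a library were whole. It also holds their log2 change, p-value and q-value of treated over PBS, per the file headers; no header or label names the test. Benjamini-Hochberg adjustment with 17077 genes gave back 100.0% of q-values to within 1e-06, so the table was read as all genes under 0.05 among 17077. A second sheet, of notes on other genes, was not used.

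The authors' scaling was worked out from their log2 changes of 3105 genes above 200 reads (median residual 9.9e-05 on the log2 scale), giving 1.08, 1.03 and 1.04 in PBS and 1.01, 0.91 and 0.94 in treated libraries. Rounded counts went into a two-sided edgeR 4.0.16 quasi-likelihood test with robust dispersions and group as the only term (R 4.3.3), after filterByExpr, and p-values were adjusted over 17077 genes with a threshold of 0.05. The SE is the size of the log2 change divided by the square root of F. Alternatives were DESeq2 1.42.0, limma 3.58.1, other scalings, filters, a replicate block and leaving out each library. Shares and sums used exact permutation tests (scipy 1.17.1).

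The members and lists were chosen with earlier results of these data known. Named genes of a list are its called members, at most the 4 largest changes, or the 2 with the smallest p where none was called; Slc2a3, Hk3 and Adpgk were added after their values were seen. All 5 gene IDs carried the same symbol in RefSeq, whose start windows supplied the sequences.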

Additional observations from a re-analysis of the deposited data

How the results depend on the processing

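With T cell gene scaling, edgeR called 31 of the 6321 fitted table genes higher and 2714 lower. The 24 scaling genes were all higher with the authors' scaling. Of the 5 genes, 0 were called higher on that scale (3 with the authors' scaling) and 2 lower, and 2 had an unadjusted p under 0.05. The log2 changes of Gpi1, Aldoa and Pfkp turned to -0.73, -1.02 and -0.42. With the authors' scaling, the number of the 5 called lower was 1 (Pfkm). It went to 0 with median-ratio scaling and with a minimum of 100 reads in every library, where 4 and 5 genes had an unadjusted p under 0.05. It went to 2, with Hk2 added, by DESeq2, on log2(TPM + 1), on log2(TPM + 0.1) and when adjusted over the table genes alone. Leaving out 1 library gave 0 to 3 genes called higher and 0 to 2 lower, with log2 changes of 0.72 to 0.85 for Gpi1, 0.44 to 0.54 for Aldoa, 0.87 to 1.22 for Pfkp, -1.30 to -0.89 for Pfkm and -0.89 to -0.58 for Hk2. Adpgk turned from -0.31 to 0.105 with median-ratio scaling. Their summed level differed by 0.257 (log2) in TPM and 0.603 in normalised reads (0.224 to 0.303 in TPM leaving out 1 library). The Pfkp share rose by 23.4 to 34.3 points, and the Hk2 share by 13.7 to 21.8, leaving out 1 library; Pfkl stood 26.4 to 18.2 points lower and Pfkm 7.9 to 5.2. Of the genes in the lists around them, 23 were higher with the authors' scaling and 4 with T cell gene scaling, as were 2734 of 6467 and 449 of 6321 over the table. Over the whole table edgeR called 2327 genes, DESeq2 6351 and limma-voom 4737. The causes of these differences were not tested.

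A replicate block (library 1 with 1, and so on) gave 3 genes called higher and 2 lower. The numbers do not pair the libraries: deviations from the group means correlated at 0.64, 0.71 and -0.37 for numbers 1, 2 and 3, and PBS library 3 was closest to treated library 1, at 0.41. Over the table, the block moved the calls from 2327 to 4337. Pfkm and Hk2, at 216 to 1219 reads per library, rest on fewer reads than Aldoa, at 20685 to 31108.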
